A study of Mus musculus with 5 samples.

Results

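Proliferating endocrine cells are the hormone-producing cells of the pancreatic islet that were caught while dividing. They were taken as the cell barcodes of the 5 droplet libraries with 1000 or more UMIs (unique molecular identifiers, 1 for each captured RNA molecule), 500 or more genes detected and no more than 15% of UMIs from mitochondrial genes, in which 2 conditions held. The summed UMIs of 6 proliferation markers (Mki67, Top2a, Cenpf, Ube2c, Birc5 and Cdk1) came to at least 5, and the hormone genes Ins1, Ins2, Gcg, Sst and Ppy together held at least 20% of all UMIs of the barcode. This gave 110 of 19858 endocrine barcodes (0.554%, exact 95% interval 0.455% to 0.667%), out of 22758 barcodes kept.

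The islets came from 5 mice labelled NOD.SCID (strain NOD.Cg-Prkdcscid/J), so every mouse carried the scid allele of Prkdc and none was a diabetes-prone immunocompetent NOD control. In the chow group mouse 1 was aged 8 weeks and mice 2 and 3 were aged 10 weeks. In the HC group, fed 20% hydrolyzed casein, mouse 1 was aged 7 weeks and mouse 2 was aged 9 weeks. Islets were freed with collagenase, picked by hand and dispersed with trypsin, and each mouse was sequenced on its own, so the mouse was the replicate. For HC mouse 2 the title says chow-fed and the diet label HC, and the diet label was followed. Library names carry the prefix FUN in mouse 1 of each diet and SKY in the other 3 mice, and the labels do not state its meaning. Each library held 4452 to 6087 deposited barcodes and 28722244 to 39624978 UMIs.

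In adult islets most endocrine cells are held outside the cell cycle, and beta and alpha cells are replaced slowly by division of cells that already make the hormone. A cell entering the cycle copies its DNA in S phase with the MCM helicase and PCNA, passes through G2 and divides in M phase, where cyclin B with the kinase Cdk1 starts mitosis and the anaphase-promoting complex, with its ubiquitin-conjugating enzyme Ube2c, ends it. Many genes of G2 and M phase are kept off in resting cells by the DREAM complex, which binds a short promoter element named CHR (cell cycle genes homology region), often beside CCAAT boxes bound by NF-Y.

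Promoters of the markers are shown because the markers chose the cells and carry that element. CHR was searched as TTTGAA on either strand (TTCAAA is the same site read on the other strand) or TTCGAA, which is its own reverse complement, and the CCAAT box as CCAAT or ATTGG; matches of 1 kind were allowed to overlap. In the 300 bases from 250 before to 50 after the start site in RefSeq (GRCm38.p6), 5 of the 6 markers held a CHR match, Birc5 being the exception. The 4 of these with the most UMIs in the proliferating barcodes are printed 5′ to 3′ from 250 bases before to 30 after the start, with CHR and CCAAT matches in capitals.
Ube2c, chr2:164769679-164769958, plus strand: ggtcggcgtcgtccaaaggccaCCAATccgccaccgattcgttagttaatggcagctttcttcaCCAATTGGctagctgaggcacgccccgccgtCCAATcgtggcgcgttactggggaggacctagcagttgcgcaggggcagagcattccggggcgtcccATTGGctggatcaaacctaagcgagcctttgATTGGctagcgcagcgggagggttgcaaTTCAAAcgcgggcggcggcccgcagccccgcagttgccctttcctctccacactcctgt
Cenpf, chr1:189688057-189688336, minus strand: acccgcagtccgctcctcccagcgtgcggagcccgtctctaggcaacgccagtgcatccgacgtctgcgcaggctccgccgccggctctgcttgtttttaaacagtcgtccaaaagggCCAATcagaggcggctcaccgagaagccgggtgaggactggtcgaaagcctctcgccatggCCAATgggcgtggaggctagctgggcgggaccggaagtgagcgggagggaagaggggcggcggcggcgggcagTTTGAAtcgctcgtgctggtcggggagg
Top2a, chr11:99024160-99024439, minus strand: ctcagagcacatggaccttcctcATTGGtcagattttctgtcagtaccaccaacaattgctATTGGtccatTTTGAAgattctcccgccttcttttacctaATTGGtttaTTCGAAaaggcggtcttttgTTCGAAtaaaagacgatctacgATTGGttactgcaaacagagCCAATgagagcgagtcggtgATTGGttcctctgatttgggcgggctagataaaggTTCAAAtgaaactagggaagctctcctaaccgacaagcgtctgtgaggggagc
Cdk1, chr10:69352883-69353162, minus strand: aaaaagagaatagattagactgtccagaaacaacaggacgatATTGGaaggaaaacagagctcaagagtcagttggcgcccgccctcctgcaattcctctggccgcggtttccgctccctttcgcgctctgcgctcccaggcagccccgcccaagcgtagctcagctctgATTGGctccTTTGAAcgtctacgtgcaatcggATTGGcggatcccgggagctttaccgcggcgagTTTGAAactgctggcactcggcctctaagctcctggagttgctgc
Ube2c held a CHR match at -29 from the start and 6 CCAAT matches, 2 of which overlap in the run CCAATTGG. Cenpf held its CHR match at 2, Top2a held matches at -179, -140, -120 and -23, and Cdk1 held them at -71 and -15.

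The motif's share differed between the S and G2/M phase lists used further on. Of the G2/M list, 41 of 48 genes had a RefSeq promoter, and 33 of their 46 promoters (71.74%) held a CHR match, against 19.23% of all 32851 promoters. Of the S phase list, 31 of 42 genes had one, and 6 of 34 promoters (17.65%) held it. CCAAT matches stood at 73.91% of G2/M and 67.65% of S promoters, against 37.41% of all promoters. A match describes the letters and not binding, and a missing match says only that the letters are not in this window.

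Most endocrine barcodes had no marker UMI, and those with some ran on across the minimum of 5 without a gap. Of the endocrine barcodes 19537 had no marker UMI, 161 had 1 and 32 had 2. At 3 or 4 there were 18 and at 5 to 7 there were 12, and the median over the 110 members was 18 (range 5 to 68). All 6 markers were detected in 55 members, 5 markers in 28 and 4 in 22. The 12 members just inside the minimum had a median of 8427.5 UMIs in all, 7.5 of the S list and 19.5 of the G2/M list, and the 18 barcodes just outside had 7943, 2.5 and 8.5. At the hormone minimum, 5 members had 20% to 25% hormone UMIs, and 5 barcodes that met the marker condition fell short with 15% to 20%. These values describe the choice and were not tested.

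**Figure D1:**
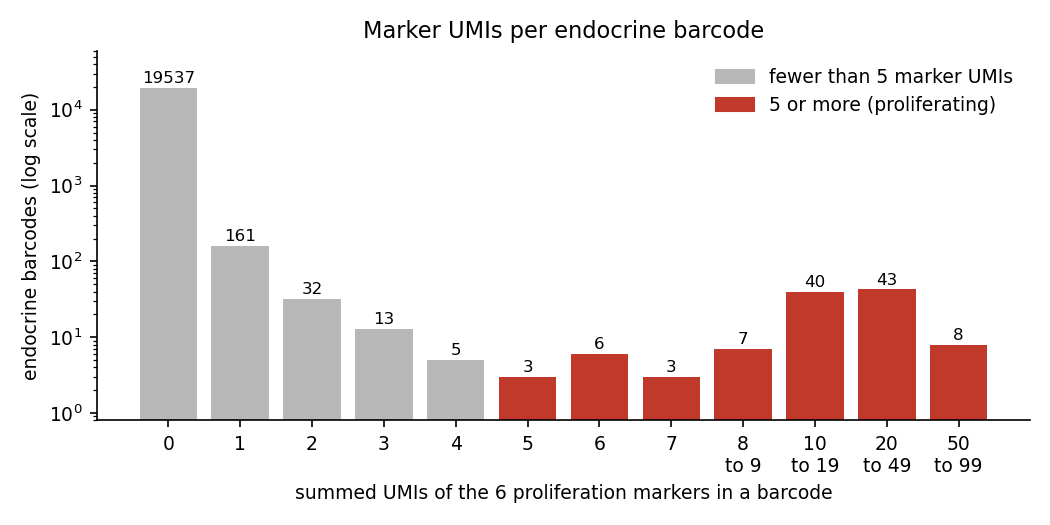
Number of endocrine barcodes (log axis) by the summed UMIs of the 6 proliferation markers, 5 mice pooled, with grey bars below the minimum of 5 and red bars at or above it. Counts fall from 19537 at 0 to 5 barcodes at 4 UMIs and 3 at 5. Bars span 1 UMI value up to 7 and more values above it, so their heights are not comparable across that change. The wider bars hold 40 barcodes at 10 to 19 and 43 at 20 to 49.

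Levels of single markers are given as CPM, the UMIs of a gene summed over a mouse's barcodes, relative to the total of that sum and scaled by TMM (edgeR's scaling between libraries). Ube2c stood at 497, 812 and 507 CPM in the insulin-led proliferating barcodes of chow mice 1 to 3 and at 353 and 556 in HC mice 1 and 2, against 0.154 to 0.497 in the other insulin-led barcodes. Mki67, the proliferation antigen Ki-67, stood at 177, 237, 155, 155 and 128 CPM in the same order, against 0.249 to 0.568. Cenpf, a kinetochore protein, stood at 206, 267, 232, 209 and 225 CPM. No mouse stood apart from the others in all of the markers.

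The label was checked against markers of the hormone cells and of other islet cell types. CPM in this paragraph are taken without TMM scaling. In the pooled values chow mouse 1 gave 540544 of the 1309716 member UMIs, and all hormone classes are mixed. Chga and Pcsk1n, granule proteins of endocrine cells, were at 3108 and 1771 CPM over the proliferating barcodes pooled, against 3650 and 2290 over the other endocrine barcodes, and Isl1 and Neurod1, islet transcription factors, at 111 and 84.0 CPM, against 106 and 83.2. Markers of another cell type (macrophage, endothelial, stromal, ductal or Schwann) reached 5 UMIs in 12 of 110 members (10.9%) and in 554 of 19748 other endocrine barcodes (2.81%). Barcodes with more UMIs reach a fixed 5 more readily, members had more UMIs, and these rates were not matched on depth. Among the 12, 6 carried ductal, 5 endothelial, 1 macrophage and 1 stromal RNA, with 1 barcode carrying both ductal and stromal RNA; by hormone, defined below, 10 were beta, 1 alpha and 1 delta. Summed macrophage markers lay between 23.3 and 271 CPM per mouse in members and between 39.3 and 93.8 in other barcodes, endothelial markers between 11.7 and 488 against 15.9 and 30.3, ductal markers between 71.3 and 344 against 98.9 and 128, and stromal markers between 0 and 20.3 against 7.02 and 23.4. Col1a1, Col3a1, Pdgfrb and Dcn of the stromal list and Sox10 and Cryab of the Schwann list had no UMI in any member. A second hormone class held at least 5% of UMIs in 11 members (10.0%) against 5.97% of other endocrine barcodes. Such barcodes can hold RNA of 2 cells, and each result is also given without them where that changes it. A further 54 barcodes met the marker condition under 20% hormone, of which 15 were led by macrophage, 12 by endothelial, 8 by ductal and 4 by stromal markers.

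Libraries shared 3 to 10 barcode sequences per pair, and no 2 members of different libraries shared one. Members were larger droplets than the rest, with a median of 11217.5 UMIs and 2220 genes against 6578.5 and 1335. The ratio of median UMIs was 1.46 to 1.94 in the 5 mice. Pooled over mice, insulin-led members had 58.9% hormone UMIs at the median, against 65.2% in other insulin-led barcodes, and glucagon-led members had 36.0% against 41.9%. Mice entered members and others in unlike proportions. Within single mice the ratio of these medians was 0.899 to 0.994 for insulin-led and 0.655 to 0.895 for glucagon-led barcodes. A marker minimum in UMIs favours large droplets, so shares by hormone were also compared after thinning, and gene levels of beta and alpha members against barcodes matched on UMIs. The comparison of gene levels between diets was not thinned or matched.

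By main hormone, 74 proliferating barcodes were led by insulin (beta, 67.3%), 32 by glucagon (alpha, 29.1%), 3 by somatostatin (delta, 2.73%) and 1 by pancreatic polypeptide (PP, 0.909%). All endocrine barcodes divided into 62.7%, 26.4%, 8.53% and 2.34%. Of beta barcodes 0.594% were proliferating (74 of 12453), of alpha 0.610% (32 of 5248), of delta 0.177% (3 of 1693) and of PP 0.216% (1 of 464).

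Beta shares were 1.51%, 0.326% and 0.286% in chow mice 1 to 3 and 0.672% and 0.359% in HC mice 1 and 2. Alpha shares were 0.883%, 0.300% and 0.816% on chow and 0.743% and 0.358% on HC. The alpha share was above the beta share in 2 of 5 mice, chow mouse 3 and HC mouse 1, and the mean difference within a mouse was -0.0116 points ± 0.414 (SD, n = 5; two-sided exact sign-flip permutation test, p = 0.8125, adjusted p = 0.900 over 4 tests of shares). Alpha barcodes were shallower, with a median of 4002 UMIs against 8261 in other beta barcodes. With every barcode thinned to 3000 UMIs, 2884 shallower ones left out and the marker minimum lowered to 3, the alpha share was above the beta share in 5 of 5 mice, by 0.411 points ± 0.381 (SD, n = 5; p = 0.062 in the same exact test, the smallest that 5 pairs allow). The barcodes left out held 0 members and were mostly not beta. Alpha barcodes fell from 5248 to 3869 and beta from 12453 to 12215, which by itself raises the alpha share more. With non-hormone UMIs thinned to 1500 the alpha share was above the beta share in 2 of 5, by 0.0855 points ± 0.317 (exact p = 0.5). The order of alpha and beta therefore changed with how depth was equalised and which barcodes were left out. No difference between them passed a test.

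Delta barcodes were proliferating in chow mouse 2 (0.322%, 1 barcode) and HC mouse 1 (0.621%, 2 barcodes) and at 0 of 247 in chow mouse 1, 0 of 415 in chow mouse 3 and 0 of 398 in HC mouse 2, which allows shares of up to 1.21%, 0.723% and 0.754% at 3 counts of the total (upper ends of the exact two-sided 95% intervals 1.48%, 0.885% and 0.923%). The delta share was below the beta share in 5 of 5 mice, by -0.443 points ± 0.618 on average (SD, n = 5; exact p = 0.062, the smallest possible, adjusted p = 0.200). In the thinning to 3000 UMIs the sign turned, to 0.799 points (exact p = 0.4375), on 4 delta members among 454 delta barcodes. That thinning left out most of the 1693 delta barcodes as too shallow, which by itself raises the delta share. At 3 members the delta share was too thinly counted to place it apart from beta.

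**Figure D2:**
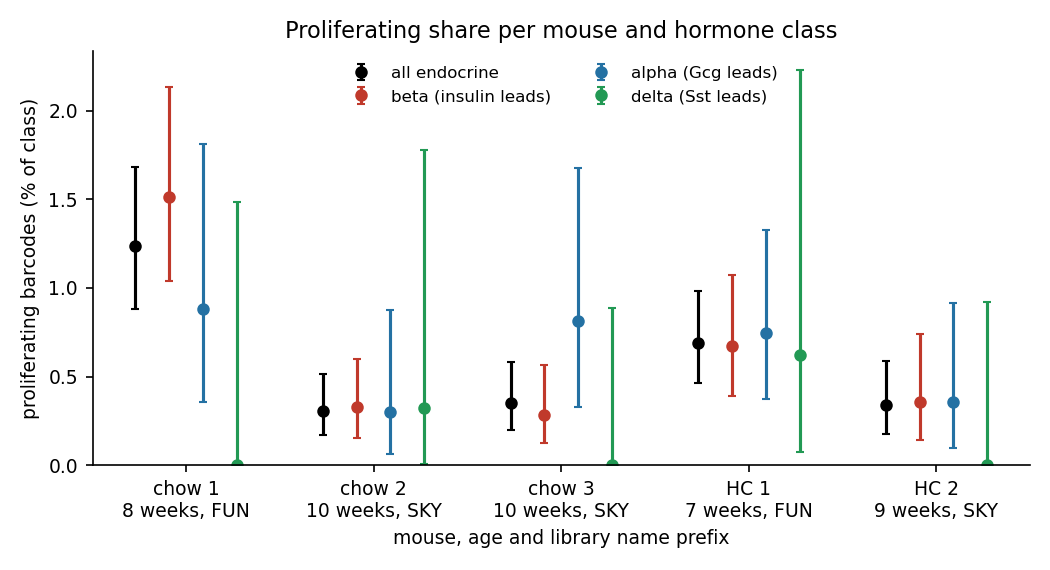
Proliferating barcodes as a percentage of all endocrine, beta, alpha and delta barcodes in each mouse (points), with exact 95% binomial intervals that cover counting error only (bars). Chow mouse 1 stands highest with 1.23% of all endocrine barcodes and 1.51% of beta barcodes, and the 3 SKY libraries lie between 0.308% and 0.353% of all endocrine barcodes.

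The comparison of diets asked whether 20% hydrolyzed casein went with a different share of dividing endocrine cells. The share of endocrine barcodes that were proliferating was 1.23%, 0.308% and 0.353% in chow mice 1 to 3 and 0.690% and 0.338% in HC mice 1 and 2. Means were 0.632% ± 0.522 on chow (SD, n = 3) and 0.514% ± 0.249 on HC (SD, n = 2), a difference of -0.118 points that was smaller than the spread within either diet (two-sided exact permutation test, p = 0.9, adjusted p = 0.900). With 3 mice against 2 this test cannot go below 0.1. The mice divided by library prefix and not by diet: the 2 FUN libraries averaged 0.962% ± 0.385 and the 3 SKY libraries 0.333% ± 0.0232. Within FUN the difference of HC from chow was -0.544 points and within SKY 0.00766 points. Without chow mouse 1 the difference was 0.184 points, and without HC mouse 2 it was 0.0582 points. The FUN mice were also the youngest, at 7 and 8 weeks, so age and prefix cannot be told apart.

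Most proliferating barcodes carried more G2/M than S phase RNA. Phase was read from UMIs of the G2/M list as a share of UMIs of the S and G2/M lists, without the 6 markers. Above 66.7% a barcode is called G2/M-leaning and below 33.3% S-leaning, which are ranges of a score and not cell types. G2/M-leaning were 78 of 110 members (70.9%), 27 lay between (24.5%) and 5 were S-leaning (4.55%), and 18 lay within 5 points of a limit. The median member had 45 UMIs of the G2/M list and 11 of the S list. Ube2c, Cenpf and other markers are themselves genes of G2 and M phase, so the choice of cells favoured late phases.

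G2/M-leaning were 55 of 74 beta members (74.3%), 22 of 32 alpha members (68.8%), 1 of 3 delta members and not the PP member. Markers behaved differently over the phase ranges. Ube2c was detected in 78 of 78 G2/M-leaning members, 19 of 27 between and 0 of 5 S-leaning members, and Cenpf in 73, 21 and 0. Top2a, the topoisomerase that untangles copied DNA, was detected in 66 of 78, 27 of 27 and 5 of 5. Mki67, Birc5 and Cdk1 were also detected in all 5 S-leaning members.

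**Figure D3:**
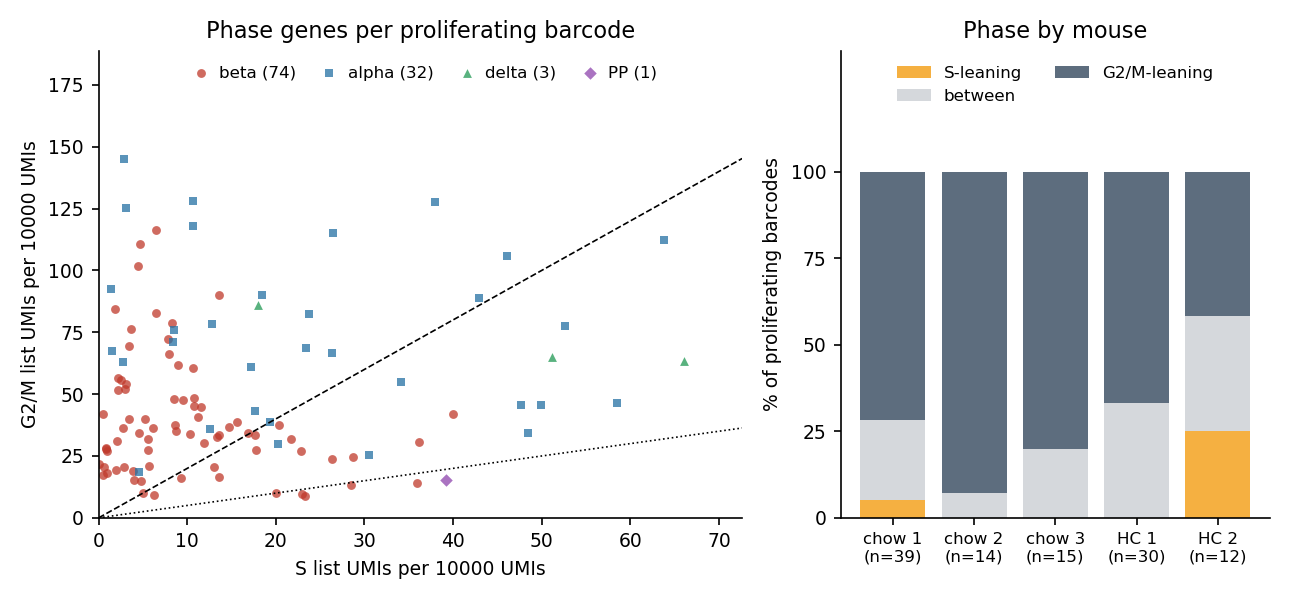
Left, UMIs of the G2/M list against UMIs of the S list per 10000 UMIs for each of the 110 proliferating barcodes, by main hormone, with a dashed line at 66.7% and a dotted line at 33.3% G2/M. Right, the percentage of proliferating barcodes per mouse in each phase range, where HC mouse 2 has the lowest G2/M-leaning share (41.7%) and 3 of the 5 S-leaning barcodes.

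The G2/M-leaning share was 71.8%, 92.9% and 80.0% in chow mice 1 to 3 and 66.7% and 41.7% in HC mice 1 and 2. Both HC mice lay below every chow mouse, with means of 54.2% ± 17.7 (SD, n = 2) and 81.6% ± 10.6 (SD, n = 3), a difference of -27.4 points (two-sided exact permutation test, p = 0.1, the smallest this design allows, adjusted p = 0.200). Within FUN the difference was -5.13 points and within SKY -44.8 points, and without HC mouse 2, which had 12 members, it was -14.9 points. Scanpy's phase score, which reads the same lists but not as a share, called 84 members G2M and 26 S and gave -31.6 points (exact p = 0.2). Grouped by title instead of diet label the difference was -4.91 points (exact p = 0.8). The S-leaning members were 2 from chow mouse 1 and 3 from HC mouse 2.

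Proliferating beta barcodes were compared with the other beta barcodes of the same mouse over summed counts, in the 3 mice with at least 10 proliferating beta barcodes (chow mice 1 and 2 and HC mouse 1). Genes called lower in proliferating beta barcodes included 10 of 18 tested mature beta cell genes and 10 of 24 tested dissociation-response genes. These are levels relative to all UMIs, and proliferating beta barcodes had 1.42 to 1.79 times the median UMIs of other beta barcodes in the 5 mice. A lower level therefore need not mean fewer UMIs of a gene per barcode, which were not compared. Proliferating beta barcodes also had a lower median share of mitochondrial UMIs in each of the 5 mice. The ratio was 0.538 to 0.748 (2.08% against 2.69% pooled), and its part in the results was not tested. Of 11317 genes tested 656 were called (5.8%), 436 higher (3.85%) and 220 lower (1.94%; edgeR quasi-likelihood test with mouse as a block, Benjamini-Hochberg adjusted p under 0.05), the 6 markers and 5 hormone genes left out. Without chow mouse 1, which gave 32 of these barcodes, 277 genes were called, and without HC mouse 1, which gave 17, 342 were. The median log2 fold change over all genes tested was -0.17, and 66.5% of the calls were higher, against 88.2% of the 406 calls made by DESeq2 and 49.3% of 1002 when all 5 mice entered. Fold changes below are on the log2 scale with SE, and HC mouse 2 and chow mouse 3, which the fit left out, are given beside them as levels.

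Cell cycle genes follow the markers that chose the barcodes, so their levels are a description. Of the G2/M list 43 of 46 tested genes were higher and none lower, of the S list 26 of 36, of spindle genes 24 of 24 and of kinetochore genes 15 of 16. Most of these genes are near 0 in other barcodes and entered the test through the proliferating ones. Ccnb2, a B cyclin, stood at 93.0, 94.9 and 120 CPM on chow and 68.5 and 120 on HC, against 0.0568 to 0.256. Stmn1, a protein that destabilises microtubules, stood at 576, 617, 559, 396 and 450 CPM in chow mice 1 to 3 and HC mice 1 and 2, against 2.27 to 5.84. Hmgb2, a chromatin protein, stood at 236, 308, 223, 263 and 233 CPM, against 7.77 to 11. The S phase gene Pcna varied between mice, at 76.2, 11.9, 51.6, 108 and 150 CPM, lowest in chow mouse 2 and highest in HC mouse 2. These mice had the highest and the lowest G2/M-leaning shares. That share is itself computed from UMIs of S phase genes, so the readings are not independent. The value of chow mouse 2 rests on few UMIs, in a sum of 144701. H2afz, Hmgb2, Ran and Tubb5 belong to families with near-identical copies, and how the authors' counting assigned reads between copies is not given in the sources used here.

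Among genes that start the cycle, the D cyclins Ccnd1 and Ccnd2 were not called higher. Ccnd2, the main D cyclin of beta cells, stood at 370, 314 and 215 CPM in proliferating beta barcodes of chow mice 1 to 3 and 483 and 233 in HC mice 1 and 2, against 548, 536, 606, 619 and 519 in the others. It was lower in each of the 5 mice without overlap, and the log2 fold change was -0.54 ± 0.15 (SE, n = 3 mice, edgeR adjusted p = 0.00871). The call was lost without chow mouse 1 (adjusted p = 0.223), without HC mouse 1 (0.120) and in DESeq2 (0.104), and adjusted p ranged from 2.44e-07 to 0.223 over 14 alternatives. For Ccnd1 the log2 fold change was -0.56 ± 0.31 (adjusted p = 0.412) and for Cdk4, the kinase partner of D cyclins, 0.37 ± 0.21 (0.415).

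Of 14 tested inhibitors of the cell cycle 5 were higher in proliferating beta barcodes and 1 lower. As cell cycle genes they may follow the choice of barcodes like the lists above, and their levels are given in the same way. Cdkn2c and Cdkn2d, INK4 inhibitors of Cdk4 and Cdk6, had log2 fold changes of 3.69 ± 0.24 and 2.84 ± 0.22. Cdkn2c stood at 106, 160 and 112 CPM on chow and 57.7 and 75.1 on HC, against 7.45 to 9.48, and Cdkn2d at 132, 136, 129, 86.5 and 82.6, against 14.4 to 18.1. Neither overlapped between proliferating and other barcodes. Cdkn2a, which encodes p16 and p19Arf, rested on 14 UMIs in the proliferating barcodes, in chow mice 1 and 2 and HC mouse 1, at 16.7, 11.9 and 10.8 CPM against 0.695 to 1.08 in all other beta sums.

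Cdkn1a, which encodes p21, the p53-induced inhibitor (chr17:29090976-29100727, GRCm38), stood at 50.2, 77.1 and 51.6 CPM on chow and 72.1 and 60.1 on HC, against 34.2, 33.9, 31.0, 27.7 and 22.2 in other beta barcodes. It was higher in each of the 5 mice, by 0.98 ± 0.24 on the log2 scale (SE, n = 3 mice, edgeR adjusted p = 0.00176). Against barcodes matched on UMIs it was 1.02 higher (0.00600), and without HC mouse 1 it was 0.81 higher (0.214), within a range of 1.38e-04 to 0.214 over 14 alternatives. Of 12 tested p53 targets it was the 1 called, beside 5.8% called over all genes tested. For Cdkn1b, which encodes p27, the log2 fold change was 0.58 ± 0.27 (adjusted p = 0.266).

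Of the mature beta cell genes 10 of 18 tested were called lower and none higher, with a median log2 fold change of -0.53 beside -0.17 over all genes. Without chow mouse 1 the count was 7, without HC mouse 1 it was 5 and in DESeq2 it was 5, with none higher, and the medians were -0.60, -0.49 and -0.45. Slc2a2, which encodes the glucose transporter GLUT2, stood at 160, 160 and 146 CPM in proliferating beta barcodes on chow and 155 and 128 on HC, against 317, 320, 359, 308 and 302 in the others. G6pc2, the islet glucose-6-phosphatase subunit, stood at 156, 142, 146, 148 and 90.1 CPM, against 285, 385, 320, 289 and 324. Both were lower in every mouse with no overlap, with log2 fold changes of -0.98 ± 0.17 and -1.03 ± 0.17 (edgeR adjusted p = 1.86e-07 and 3.34e-08).

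Nkx6-1, a transcription factor of beta cell identity, stood at 125, 113 and 94.5 CPM on chow and 112 and 75.1 on HC, against 197 to 251, a log2 fold change of -0.85 ± 0.17 (adjusted p = 2.94e-05). Slc30a8, the granule zinc transporter, changed by -0.80 ± 0.16 (2.28e-05) and Ero1lb, an oxidase that helps insulin fold, by -0.78 ± 0.15 (2.06e-05). These 5 genes stayed past the threshold in each of the 14 alternatives run, among them the fit against other beta barcodes of the same UMI depth, in which 9 of 17 tested mature genes were lower and none higher (median -0.38 beside -0.02 over all genes in that fit). That fit called 117 of all 3171 genes tested lower and 258 higher.

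For other mature genes the call depended on single mice. Mafa, the transcription factor of mature beta cells (chr15:75745490-75748228), stood at 329, 297 and 284 CPM on chow and 252 and 233 on HC, against 560, 428, 414, 313 and 464, lower in each mouse but with overlap between mice. The log2 fold change was -0.54 ± 0.15 (SE, n = 3 mice, edgeR adjusted p = 0.00970), but the adjusted p rose to 0.542 when chow mouse 1 was left out, to 0.109 when HC mouse 1 was, to 0.175 in DESeq2 and to 0.0828 with no block, over a range from 1.26e-04. Ucn3, the hormone urocortin 3 of mature beta cells (chr13:3940688-3945349), stood at 154, 107, 120, 130 and 90.1 CPM, against 209 to 225, without overlap (log2 fold change -0.70 ± 0.17, 0.00108). Its adjusted p was 0.103 without HC mouse 1 and 0.0671 in DESeq2, over a range from 4.82e-06. Glp1r, the receptor of the incretin GLP-1, changed by -0.76 ± 0.19 (0.00178), with 0.214 without chow mouse 1, 0.129 without HC mouse 1 and 0.114 in DESeq2, over a range from 6.79e-06. Pdx1, which beta cells need from development on, did not pass the test, at 106, 71.2, 112, 79.3 and 37.5 CPM against 83.3 to 115 (-0.13 ± 0.20, adjusted p = 0.837).

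Prlr, the prolactin receptor, which drives beta cell growth in pregnancy, was at 231, 178 and 232 CPM on chow and 314 and 323 on HC, against 325, 338, 438, 444 and 260 in other beta barcodes. It was lower in the 3 fitted mice (-0.59 ± 0.16, edgeR adjusted p = 0.00420) and in chow mouse 3, and higher in HC mouse 2. Adjusted p rose to 0.0777 when chow mouse 1 was left out, to 0.130 when HC mouse 1 was and to 0.0934 in DESeq2, over a range from 0.00131. It was the 1 call among 24 tested genes of growth signals and their receptors, beside 5.8% called over all genes tested. The growth hormone receptor gene Ghr gave -0.40 ± 0.23 (0.422).

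Of 12 tested general endocrine genes 3 were lower and none higher, and 2 were lower without chow mouse 1, without chow mouse 2 or without HC mouse 1. Chga stood at 2635, 1945, 1848, 2292 and 2155 CPM, against 3797 to 4467 in other beta barcodes, without overlap (log2 fold change -0.85 ± 0.14, edgeR adjusted p = 2.28e-07). Pcsk1n, an inhibitor of the prohormone convertase PC1/3, changed by -0.70 ± 0.15 (8.91e-05). Both stayed past the threshold in the 14 alternatives. Of the unfolded protein response list 1 of 26 was lower and of the amino acid response list 2 of 23, with none higher in either. Over all genes tested 1.94% were lower and 3.85% higher. Atf5, a stress-induced transcription factor of the latter list, stood at 48.4, 23.7, 51.6, 39.6 and 75.1 CPM, against 76.8 to 138, without overlap (log2 fold change -1.30 ± 0.24, 1.90e-06).

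**Figure D4:**
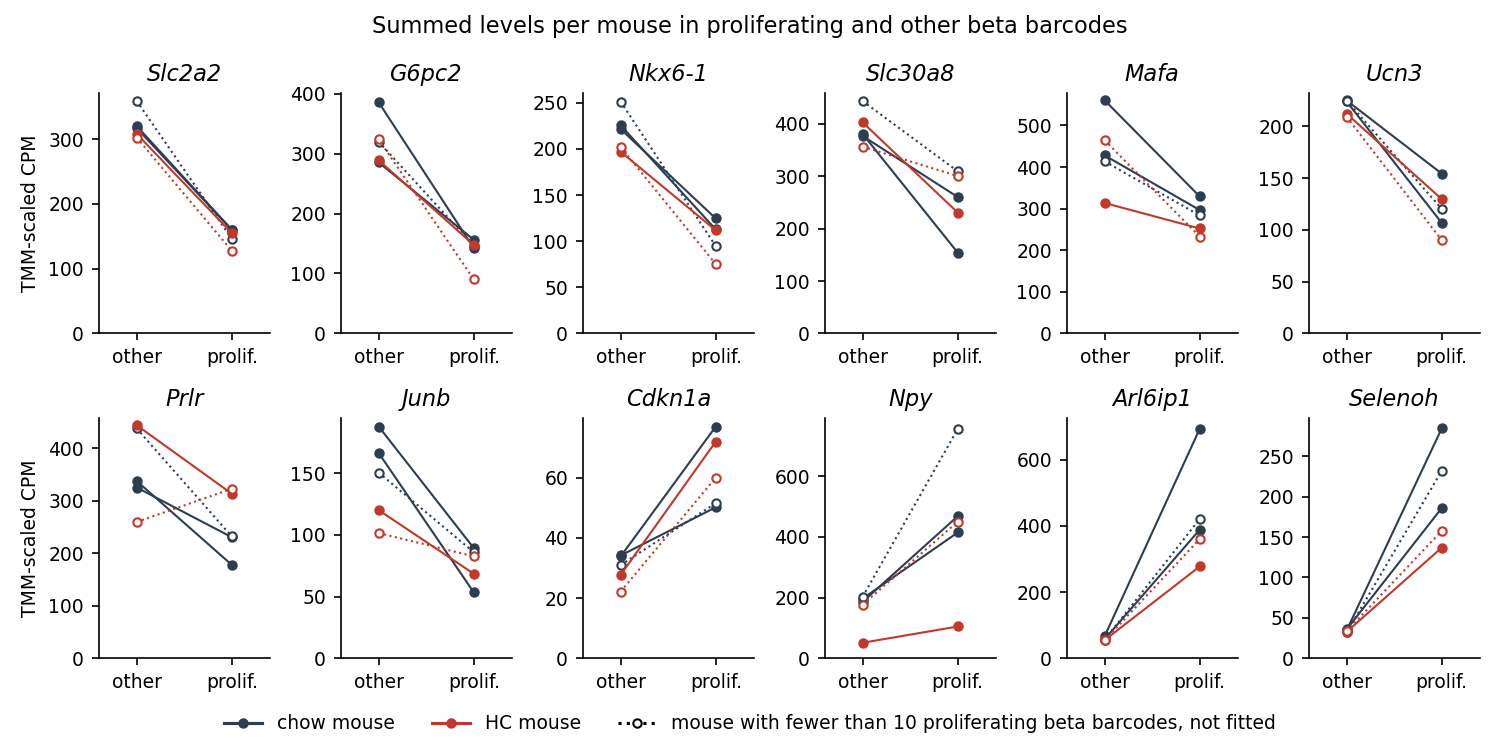
TMM-scaled CPM of 12 genes in other and proliferating beta barcodes, 1 line per mouse (dark for chow, red for HC), with open symbols and dotted lines for the 2 mice with fewer than 10 proliferating beta barcodes. Slc2a2, G6pc2 and Nkx6-1 fall and Cdkn1a, Npy, Arl6ip1 and Selenoh rise along all 5 lines, and Prlr rises in HC mouse 2 alone.

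Of genes induced by tissue dissociation 10 of 24 tested were lower in proliferating beta barcodes and 1 higher (median log2 fold change -0.53 beside -0.17 over all genes). Against barcodes matched on UMIs 7 of 16 were lower and 1 higher, beside 117 lower and 258 higher of all 3171 genes tested. The mitochondrial share of these barcodes was also lower, as given above, and any link with this list was not tested. Lower were 4 without chow mouse 1, 6 without HC mouse 1, 4 in DESeq2 and 6 with no block. Hspa1a, a heat shock chaperone whose reads can be shared with its near-identical copy Hspa1b, stood at 18.6, 0 and 34.4 CPM on chow and 3.6 and 7.51 on HC, against 91.0, 69.5, 60.7, 46.0 and 47.1. It was lower in each mouse without overlap (-2.74 ± 0.35, edgeR adjusted p = 5.96e-13), and with no block adjusted p was 0.226, the highest of 14 alternatives that went down to 2.03e-13. Junb, an immediate-early AP-1 factor, stood at 89.3, 53.4, 85.9, 68.5 and 82.6 CPM, against 188, 166, 151, 120 and 101, without overlap (log2 fold change -1.09 ± 0.20, 1.38e-06). Hsp90aa1, the higher one, had a log2 fold change of 0.44 ± 0.15 (0.0489), and the call was lost without chow mouse 1 (0.477), without HC mouse 1 (0.750) and in 3 further alternatives, over a range from 2.55e-06.

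Outside the cell cycle lists, Arl6ip1 and Selenoh gave the largest rises among well-counted genes that moved the same way in every fitted mouse. These lists need not hold every gene that varies over the cycle. The genes below may therefore also follow the choice of barcodes, which was not tested. Arl6ip1, a membrane-shaping protein of the endoplasmic reticulum (chr7:118118891-118129662), stood at 389, 694 and 421 CPM on chow and 277 and 360 on HC, against 54.1 to 66.4 in other beta barcodes (2.85 ± 0.14, edgeR adjusted p = 1.02e-84). Selenoh, a nuclear selenoprotein (chr2:84669215-84670770), stood at 186, 285, 232, 137 and 158 CPM, against 31.8 to 35.6 (2.50 ± 0.17, 2.30e-44). No mouse overlapped for either gene. H1fx, a linker histone (2.32 ± 0.18), S100a10 (1.71 ± 0.19), the peroxiredoxin Prdx4 (1.71 ± 0.20), Rsph1 (1.59 ± 0.24), Dapl1 (1.53 ± 0.21), the calmodulin gene Calm2 (1.53 ± 0.15), the nuclear transport GTPase gene Ran (1.46 ± 0.15) and Nnat (1.33 ± 0.20) followed. These 10 held in each of 14 alternatives except Nnat with no block (adjusted p = 0.238, over a range from 3.52e-12).

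Lower genes by the same rule included Glul, which encodes glutamine synthetase and stood at 35.3, 17.8 and 34.4 CPM on chow and 21.6 and 45.0 on HC, against 84.4 to 95 (-1.59 ± 0.27, edgeR adjusted p = 1.29e-07). Aldoa, a glycolytic enzyme, stood at 70.7, 41.5, 43.0, 57.7 and 45.0 CPM, against 174 to 204 (-1.54 ± 0.20, 1.73e-12). Neu1, a lysosomal sialidase, changed by -2.30 ± 0.45 and Defb1, a beta-defensin, by -1.73 ± 0.30. Glul, Aldoa and Defb1 held in 14 of 14 alternatives and Neu1 in the 13 that tested it. Rasd1 (-1.56 ± 0.34, 0.0630 without chow mouse 1, over a range from 5.39e-07), Dusp1 (-1.55 ± 0.36, 0.103 in DESeq2, from 7.03e-05) and Lgalsl (-1.44 ± 0.34, 0.148 without HC mouse 1 and 0.0677 in DESeq2, from 6.17e-05) lost the call in some. So did Rimbp2 (-1.43 ± 0.35, 0.121 without chow mouse 1 and 0.130 in DESeq2, from 9.28e-05). Fam210b (-1.47 ± 0.37) lost it without chow mouse 1 (0.107), without chow mouse 2 (0.0632), in DESeq2 (0.144) and against matched barcodes (0.0785), from 5.25e-04.

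Npy, the neuropeptide Y gene, which is made early in beta cell life, stood at 415, 469 and 756 CPM in proliferating beta barcodes on chow and 104 and 450 on HC, against 197, 186, 203, 50.9 and 177. It was higher in each of the 5 mice within the mouse, by 1.17 ± 0.15 on the log2 scale (SE, n = 3 mice, edgeR adjusted p = 2.47e-12). HC mouse 1 was low in both kinds of barcode, so the groups overlapped across mice, and with no block adjusted p was 0.590, over a range from 3.17e-25. Npy is in a list that joins genes of immature beta cells with disallowed genes, those kept low in mature beta cells. Of this mixed list 2 of 7 tested genes were higher, the other being Oat, so the count is not a measure of immaturity alone.

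Of the macrophage markers 3 of 6 tested, C1qa, C1qb and C1qc, were higher in proliferating beta barcodes, and none was higher without HC mouse 1. C1qa, a complement gene of macrophages, stood at 29.8, 23.7 and 8.59 CPM on chow and 130 and 37.5 on HC, against 16.1 to 30.4, and was high in HC mouse 1 alone, where 1 member held 72 macrophage UMIs. The log2 fold change of 1.24 ± 0.27 (edgeR adjusted p = 2.09e-04) fell to 0.12 without HC mouse 1 (0.983) and to 0.41 without barcodes with other cell type markers (0.666). It was also lost in DESeq2 (0.118), without chow mouse 2 (0.0576), with no block (0.475) and against matched barcodes (0.849), over a range from 2.08e-07. Without those barcodes 628 genes were called in all, none of 2 tested macrophage genes among them, and of the mature beta cell list again 10 of 18 lower.

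Proliferating alpha barcodes were compared with other alpha barcodes in all 5 mice with 3 or more members (7, 3 and 7 on chow, 11 and 4 on HC), since 10 were reached in HC mouse 1 only. Of 8388 genes tested 558 were called (6.65%), 173 higher (2.06%) and 385 lower (4.59%; edgeR quasi-likelihood test with mouse as a block). Without chow mouse 1, with 7 of the 32 members, 370 were called. The median over all genes was -0.53, and the split depended on the scaling: with size factors from well-counted genes the median was -0.04 and 278 genes were higher and 87 lower, and against barcodes matched on UMIs 68 were higher and 60 lower of 495 tested. Calls of lower genes in alpha are therefore read only relative to that median.

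Arl6ip1 and Selenoh were called higher in alpha as in beta. As in beta, the genes named here may follow the choice of barcodes. Arl6ip1 stood at 390, 257 and 421 CPM on chow and 849 and 318 on HC, against 88.7 to 116 in other alpha barcodes (2.26 ± 0.22, edgeR adjusted p = 3.31e-23), and Selenoh at 250, 229, 259, 385 and 159 CPM, against 48.7 to 71.4 (2.18 ± 0.27, 4.86e-14). Dnajc9, a chaperone for histones, stood at 172, 57.2, 130, 106 and 185 CPM, against 21.6 to 37.0 (2.13 ± 0.36, 2.32e-07). Rnaseh2c, a subunit of the ribonuclease that removes ribonucleotides from DNA, and Ccdc34 each rose by 1.89 on the log2 scale. No mouse overlapped in these 5 genes. The sums were small, with 22739 UMIs from 3 barcodes in chow mouse 2 and 24219 from 4 in HC mouse 2, so single values rest on few UMIs.

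Cell cycle lists in alpha are again a description: 27 of 33 tested G2/M genes, 11 of 18 S genes and 11 of 12 spindle genes were higher and none lower. Hmgb2 stood at 734, 429, 777, 584 and 582 CPM, against 12.9 to 27.9, and Ccnb2 at 156, 171, 130, 199 and 79.4 CPM, against 0 in 4 mice and 0.201 in HC mouse 1. Cdkn2c (3.76 ± 0.40) and Cdkn2d (2.78 ± 0.34) were higher as in beta.

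Cdkn1a was at 453, 143, 178 and 146 CPM in proliferating alpha barcodes of chow mice 1 to 3 and HC mouse 1 and at 0 in HC mouse 2, against 117, 101, 92.1, 45.5 and 52.1 in other alpha barcodes. The sum of HC mouse 2 held 24219 UMIs, too few for its 0 to show a lower level. The log2 fold change was 1.28 ± 0.28 (SE, n = 5 mice, edgeR adjusted p = 2.80e-04). Chow mouse 1 held the highest value, and without it the change was 0.86 (0.237). With no block adjusted p was 0.301, over a range from 6.69e-09.

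Alpha cell identity genes had 5 of 14 lower and none higher (median -0.92 beside -0.53 over all genes), and 1 higher and 2 lower of 7 against matched barcodes. Dissociation-response genes had 10 of 23 lower (median -0.97), but against matched barcodes none of 10 lower and 2 higher. In the matched fit 68 of all 495 genes tested were higher and 60 lower. The median mitochondrial share of proliferating alpha barcodes was 0.928 to 1.17 times that of other alpha barcodes in the 5 mice. Bace1, Trnp1 and Rbm27 had no UMI among 222560 UMIs of proliferating alpha barcodes, where 3 UMIs over the pooled barcodes would be 13.5 CPM. Against 27.9, 25.3 and 26.5 CPM in other alpha barcodes, pooled without TMM scaling, they were at least 2.07-fold, 1.88-fold and 1.97-fold lower. Apoe, at 2 UMIs, and Cd74, at 1 UMI, were also low, against 149.6 and 76.9 CPM. These 5 genes came from the rule for the largest decreases, which favours genes at 0 in small sums.

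Gene levels on the 2 diets were compared within the proliferating barcodes, summed over all hormones in each of the 5 mice. None of 1548 genes was called (0%; edgeR quasi-likelihood test), and 49 had an unadjusted p under 0.05. Without chow mouse 3 the count was 1, without HC mouse 1 it was 3 and without HC mouse 2 it was 13. DESeq2 called 0, with 12 at an unadjusted p under 0.05. The smallest p among lower genes belonged to Mt1, a metallothionein that binds zinc (chr8:94179082-94180327), at 518, 789 and 756 CPM on chow and 289 and 304 on HC. The HC mice lay below every chow mouse, with a log2 fold change of -1.19 ± 0.24 (edgeR adjusted p = 0.0601).

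Mt1 passed 0.05 in 6 of 14 alternatives. Adjusted p was 0.0476 without HC mouse 1, 0.00128 without HC mouse 2, 0.0427 without barcodes with other cell type markers, 0.0117 with no filter on low counts, 0.0115 with prefix as a term and 0.00379 in beta members alone, within a range up to 0.998. The other endocrine barcodes, scaled together with the members, stood at 463, 673 and 620 CPM on chow and 434 and 398 on HC, so HC mice were also lowest there, by less. Mt2, a second metallothionein, stood at 94.6, 136 and 121 CPM on chow and 52.5 and 44.5 on HC (-1.14 ± 0.35, 0.998).

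Bace2, a protease of beta cells, stood at 206, 179 and 76.2 CPM on chow and 49.6 and 81.5 on HC (-1.42 ± 0.39, edgeR adjusted p = 0.771), with chow mouse 3 among the HC mice. It passed without chow mouse 3 (0.0317), without HC mouse 2 (0.00617) and with mice grouped by title (0.0426), within a range up to 1. Pcm1, a centriolar satellite protein, gave -1.63 ± 0.48 (0.918) and Btg2, an antiproliferative gene, -0.85 ± 0.27 (0.998). Toward HC the smallest p belonged to Cltb (1.28 ± 0.34, 0.658), Slc38a5 (1.05 ± 0.35), Ucp2 (0.81 ± 0.27), Meis2 (0.93 ± 0.32) and Pak3 (1.06 ± 0.38), the last 4 at an adjusted p of 0.998. Slc38a5, an amino acid transporter, stood at 60.5, 24.7 and 82.6 CPM on chow and 134 and 88.9 on HC. The mix of hormones in these sums differed between mice. In beta members alone 1 of 1134 genes was called, Mt1, and in alpha members alone 0 of 546, with 12 at an unadjusted p under 0.05.

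**Figure D5:**
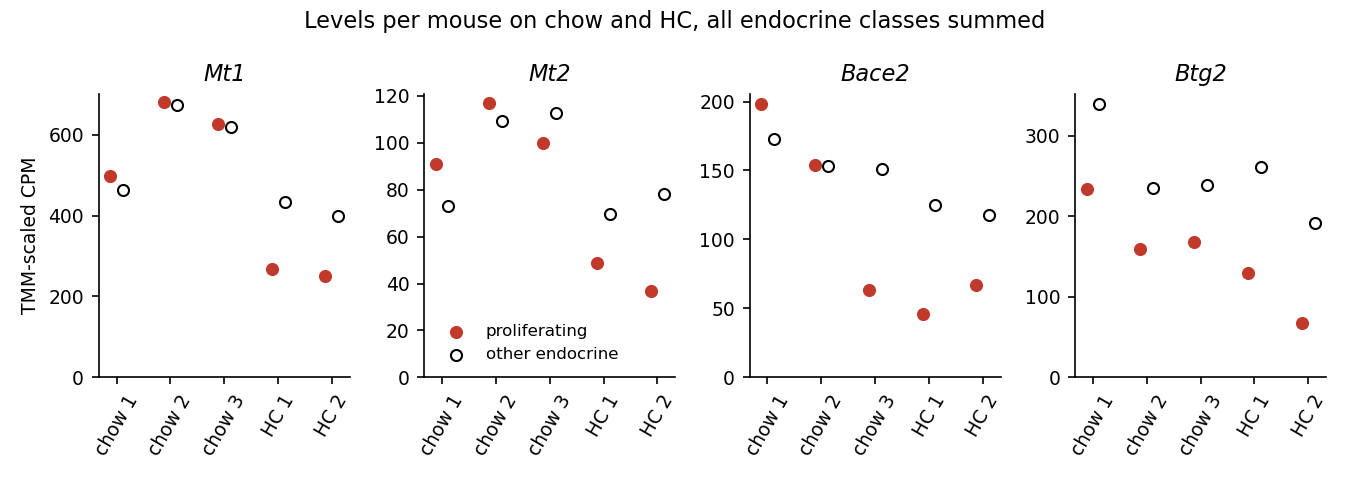
TMM-scaled CPM of 4 genes in proliferating barcodes (red) and other endocrine barcodes (open) of each mouse, all hormones summed and both kinds scaled together. Mt1 and Mt2 are lower in both HC mice than in every chow mouse in proliferating barcodes, and Bace2 of chow mouse 3 lies among the HC mice.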

How the data were processed

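Single-cell 3′ RNA-seq libraries of islets from 5 mice were used as the authors deposited them, as raw UMI counts per Ensembl gene and barcode. Cell Ranger 4.0.0 and the mm10 genome build are named in the submitters' processing notes. Barcodes were chosen as stated in the report. The rule's members, the gene lists, tests and alternatives were chosen with earlier results of these data known. No doublet caller was run, and barcodes with a second hormone or with markers of another cell type were left out as alternatives instead.

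Deposited counts were summed per mouse over members and non-members of a hormone class and tested with edgeR 4.0.16 under R 4.3.3. Sums were scaled by TMM, low genes were removed with filterByExpr, and the robust quasi-likelihood test was two-sided, with p adjusted by Benjamini-Hochberg over all genes tested and called below 0.05. Members and others of 1 mouse come from the same animal, so the mouse was a block. The design asked for 10 members per mouse, which was kept for beta, and 3 were used for alpha because 1 mouse alone reached 10. In the diet comparison replicate numbers do not pair mice. Shares were compared by exact permutation tests in scipy 1.17.1 and scanpy 1.11.5 gave the phase score used as an alternative. The fits were also run on simulated data, whose outcome is not given here.

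Genes were named by a fixed rule. In member against non-member these were the 10 (beta) or 5 (alpha) largest changes in each direction among called genes outside the cell cycle lists, with the same sign in every mouse and a mean level no lower than 5 on the log2 CPM scale. In the diet comparison they were the 5 smallest p in each direction. The highest members of each list and a set of cell cycle, maturity and receptor genes were added. Cdkn2a, Oat, Atf5 and the genes of called lists were named after their values were seen. Alternatives were DESeq2 1.42.0, other scalings and filters, other marker and depth settings, and leaving out each mouse. Intervals on shares cover counting error only.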

Additional observations from a re-analysis of the deposited data

How the results depend on the processing

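The difference in proliferating share between HC and chow changed sign: 0.132 points with mice grouped by title, 0.00766 within SKY libraries, and between -0.294 and 0.184 with 1 mouse left out. Alpha minus beta changed sign to 0.254 points with stricter barcode filters, 0.0191 with at least 10 marker UMIs, 0.411 and 0.0855 under the 2 thinnings, 0.0436 without barcodes with other cell type markers, and ran from -0.147 to 0.143 with 1 mouse left out. Delta minus beta turned to 0.799 points under thinning to 3000 UMIs, and a hormone minimum of 40% left no value for it. The G2/M-leaning difference was -5.13 points within FUN libraries and negative in each of the 17 alternatives. Genes called in beta numbered 406 in DESeq2, 375 against matched barcodes, 1002 with all 5 mice and 277 to 580 with 1 mouse left out. In alpha they numbered 312 in DESeq2, 838 with no replicate block, 128 against matched barcodes, 305 without barcodes with a second hormone, 365 with scaling over well-counted genes and 370 to 470 with 1 mouse left out. With no replicate block 671 were called in beta. The diet comparison called 4 genes with no filter, 1 without barcodes with other cell type markers, 10 by title, 1 with prefix as a term, 2 with age as a term, 1 in beta members alone and 0 to 13 with 1 mouse left out. The causes of these shifts were not tested. No gene whose fold change the report gives changed direction there in the alternatives run. Among genes of the naming rule that it does not describe, Sst in beta went from 0.63 to -0.69 with all 5 mice, Sst, Ppy and Cdkn1b changed sign in alpha, and the 6 markers, the 5 hormones, Cdkn1a and Ccnd2 changed sign between diets. The small numbers of proliferating barcodes per mouse, 12 to 39, limit every value given.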
